A study of Mus musculus with 6 samples.

Results

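The with-no-lysine (WNK) kinase pathway of the distal tubule was described in mDCT15 cells through 9 genes: the kinase genes *Wnk1*, *Wnk4*, *Stk39* and *Oxsr1*, the ubiquitin ligase genes *Klhl3*, *Cul3* and *Nedd4l*, the aldosterone effector gene *Sgk1*, and *Scnn1a*, which encodes the alpha subunit of the epithelial sodium channel (ENaC). The genes were chosen by name for their place in this pathway, and all 9 had a row among the 20624 genes of the deposited table. RNA was sequenced from 3 samples of wild type and 3 samples of Pkd1-/- mDCT15 cells, a mouse line from the distal convoluted tubule (DCT). The Pkd1-/- cells were made with CRISPR/Cas9, the genotype field of the labels calls them a knockdown, and the number of clones behind them is not given in the sources used here. The methods of the study give the same serum-containing medium for the culture of both genotypes. They do not state the medium at harvest for sequencing, and the labels name no treatment.

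In the DCT, the WNK kinases respond to chloride and potassium and phosphorylate the paired kinases SPAK (encoded by *Stk39*) and OSR1 (encoded by *Oxsr1*), which in turn phosphorylate and activate cation-chloride cotransporters, above all the thiazide-sensitive sodium-chloride cotransporter NCC. The adaptor KLHL3 and the scaffold cullin 3 form a ubiquitin ligase that marks WNK kinases for degradation, and mutations in the human genes for WNK1, WNK4, KLHL3 or cullin 3 cause familial hyperkalaemic hypertension. Aldosterone and glucocorticoids induce *Sgk1*, whose kinase restrains NEDD4-2 (encoded by *Nedd4l*), a ligase that removes ENaC from the cell surface.

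The quantity reported for each gene is the authors' mean normalized count over all 6 libraries, so wild type and Pkd1-/- cells enter 1 value together. Values of single libraries were not analysed here, and the authors' columns that compare the genotypes were left out. No spread between replicates can therefore be given, the depth of each library is unknown, and nothing is said of a difference between the genotypes. To compare genes, the mean was divided by the length in kb of all annotated exons of the gene merged together, which gives a mean normalized count per kb. The percentile of a gene is the share of the 20122 genes with an exon length that had a lower value per kb, and the median of these genes was 28.6 per kb. The edited gene itself, *Pkd1*, had a mean normalized count of 3175, or 182 per kb. A mean over both genotypes does not check the edit.

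The promoter regions that follow show how differently 3 of the genes begin. Each holds the 250 bases before a start site in RefSeq, written 5′ to 3′ on the strand of the gene and placed by exact match on GRCm39. *Cul3*, which had the highest value per kb of the 9 genes, and *Klhl3*, which had the lowest, are shown with each CG pair in capitals. *Sgk1* is shown at the fifth of its 6 listed start sites because that window holds a full glucocorticoid response element, in capitals.
*Cul3*, chr1:80318408-80318657, minus strand: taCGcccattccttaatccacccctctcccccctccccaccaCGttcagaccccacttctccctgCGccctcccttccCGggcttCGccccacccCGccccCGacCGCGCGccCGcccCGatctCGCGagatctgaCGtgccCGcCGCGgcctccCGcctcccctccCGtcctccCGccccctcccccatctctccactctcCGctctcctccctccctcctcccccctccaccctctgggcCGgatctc
*Klhl3*, chr13:58261462-58261711, minus strand: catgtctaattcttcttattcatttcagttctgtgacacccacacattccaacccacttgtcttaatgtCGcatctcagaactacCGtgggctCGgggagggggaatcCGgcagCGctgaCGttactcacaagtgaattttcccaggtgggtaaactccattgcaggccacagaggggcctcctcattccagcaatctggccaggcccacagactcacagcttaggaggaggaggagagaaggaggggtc
*Sgk1*, chr10:21869539-21869788, plus strand: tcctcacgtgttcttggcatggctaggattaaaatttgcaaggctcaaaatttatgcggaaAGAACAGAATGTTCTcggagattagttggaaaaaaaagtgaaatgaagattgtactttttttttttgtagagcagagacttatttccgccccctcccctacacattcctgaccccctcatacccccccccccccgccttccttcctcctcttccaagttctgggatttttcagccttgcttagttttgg
The *Cul3* region held 23 CG pairs and the *Klhl3* region 6, which is also the median of all 32851 regions of this length in the RefSeq table. No relation between CG pairs and level is read from these regions.

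Regions before a start site were found for 7 of the 9 members, 12 regions in all, of which 6 belong to *Sgk1*. *Stk39*, the seventh of the 9 genes by value per kb, had 43 CG pairs, more than 99.3% of all regions, followed by *Wnk1* with 26, *Cul3* with 23, *Oxsr1* with 21 and *Wnk4* with 17. The 6 regions of *Sgk1* ranged from 2 to 22 CG pairs, and the 22 pairs lay at the start site farthest downstream. The GC box GGGCGG, searched on both strands, occurred in 7 of the 12 regions and in 32.7% of all regions. It was found for 6 of the 7 genes, *Klhl3* being the exception. The TATA box TATAAA and the CCAAT box CCAAT were also searched on both strands. The TATA box occurred in 2 of the 12 regions, both of *Sgk1*, and in 12.4% of all regions. The CCAAT box also occurred in 2, both of *Sgk1*, and in 33.8% of all.

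The glucocorticoid response element was searched as AGAACA, any 3 bases and TGTTCT, which reads the same on both strands. It was present in 1 region of *Sgk1*, as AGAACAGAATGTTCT at chr10:21869600-21869614, and in 3 of the 32851 regions. It lies 175 bases before the fifth start site and 951 bases before the sixth. A match in the letters is a description and does not show that a receptor binds there. Corticosteroid receptors of both kinds can bind this element. The glucocorticoid receptor gene *Nr3c1* had 220 per kb, with a mean normalized count of 1735. The mineralocorticoid receptor gene *Nr3c2* had 1.14 per kb, with a mean normalized count of 9.71.

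Among the kinases, *Wnk1* (ENSMUSG00000045962, chr6:119900930-120015660 on the minus strand, GENCODE coordinates on GRCm39) reached a mean normalized count of 8468. With 23.6 kb of merged exons, this gave 359 per kb, at percentile 91.6. The gene yields a full-length kinase and, from a start inside the gene, a kidney form without the kinase domain. A count over the gene sums both. *Wnk4* (ENSMUSG00000035112, chr11:101151246-101168235 on the plus strand) had a mean of 413 and 94.5 per kb, at percentile 68.9. The value of *Wnk1* per kb was 3.79 times that of *Wnk4*, and 7.78 times when both were scaled by their longest transcript. Of the exonic bases of *Wnk4*, 138 (3.16%) are shared with *Coa3* on the opposite strand. HTSeq was run with default parameters, and the strand the kit marks was not stated, so reads there cannot be assigned with certainty. A strand setting that did not match the kit would affect the counts of all genes, which was not tested.

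Their substrate kinases were both present above the median gene of all types. Among protein-coding genes alone, *Stk39* was below the median, at percentile 44.8, and *Oxsr1* above it, at 70.5. *Oxsr1* (ENSMUSG00000036737, chr9:119067498-119151509 on the minus strand) was counted at a mean of 1326 normalized reads and gave 158 per kb, at percentile 79.0. *Stk39* (ENSMUSG00000027030, chr2:68040789-68302723 on the minus strand) had a mean of 621 and 57.9 per kb, at percentile 60.1. OSR1 transcripts thus exceeded SPAK transcripts 2.72 times per kb, and 3.01 times with the longest transcript.

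The 3 ubiquitin ligase genes spanned almost the whole range. *Cul3* (ENSMUSG00000004364, chr1:80242639-80318537 on the minus strand) was counted at a mean of 3453 normalized reads and gave 620 per kb, at percentile 96.2. *Klhl3* (ENSMUSG00000014164, chr13:58148042-58261469 on the minus strand), whose product brings WNK kinases to cullin 3, had a mean of 5.70 and 0.772 per kb, at percentile 9.78. With no scaling by length, *Klhl3* was at percentile 26.5 and *Cul3* at 95.5, so the place of *Klhl3* depended on the scaling while it stayed below the median gene. *Nedd4l* (ENSMUSG00000024589, chr18:65020724-65350899 on the plus strand) had a mean of 1518 and 68.7 per kb, at percentile 63.1. It shares 667 (3.02%) of its exonic bases with the lncRNA gene *A330084C13Rik* on the opposite strand, which had a mean of 4.45.

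*Sgk1* (ENSMUSG00000019970, chr10:21758083-21875802 on the plus strand) was counted at a mean of 688 normalized reads and gave 114 per kb, at percentile 72.6. *Scnn1a* (ENSMUSG00000030340, chr6:125297622-125321906 on the plus strand) had a mean of 54.1 and 13.1 per kb, at percentile 41.2. *Scnn1a* and *Klhl3* were the members below the median gene.

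**Figure D1:**
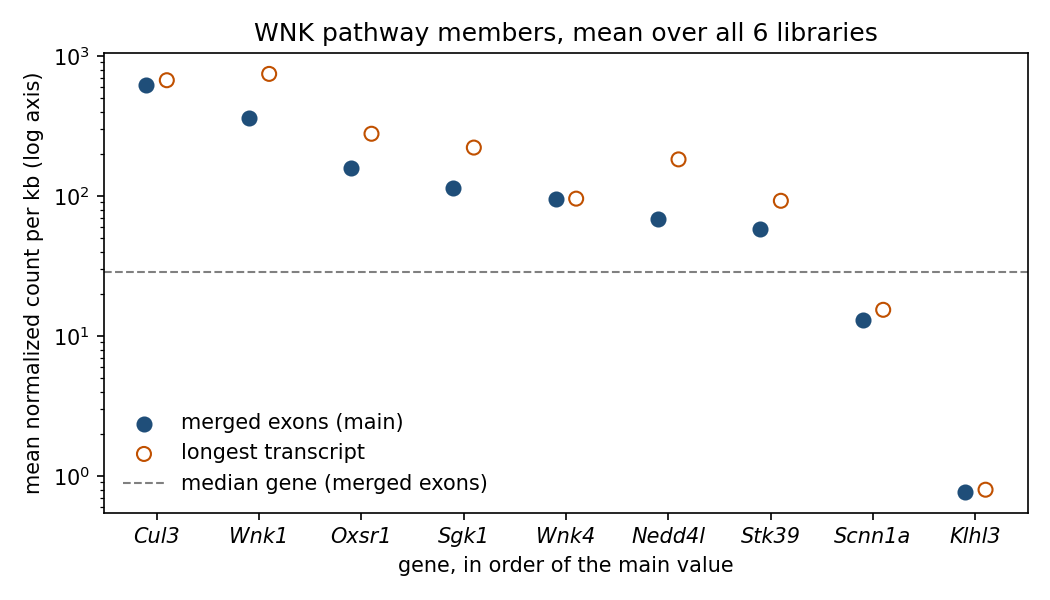
Mean normalized count per kb (log axis) of the 9 genes, averaged by the authors over all 6 libraries. Filled points are scaled by merged exons, open points by the longest transcript. The dashed line is the median gene scaled by merged exons, at 28.6 per kb. Of the 9 genes, 7 lie above the line by both scalings, with *Scnn1a* and *Klhl3* below it. Against the median gene scaled by the longest transcript, which is not drawn, the number above was also 7.

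In order of the value per kb, *Cul3* came first, then *Wnk1*, *Oxsr1*, *Sgk1*, *Wnk4*, *Nedd4l*, *Stk39*, *Scnn1a* and *Klhl3*. Without single libraries it could not be tested which neighbours in this order differ. Part of the order depended on the length used. Scaled by the longest transcript, *Wnk1* (744 per kb) passed *Cul3* (671), and *Nedd4l* (182) passed *Wnk4* (95.7), while the other 5 kept their places. The largest effect of the length was on *Nedd4l*, whose value was 2.66 times higher with the longest transcript, and the smallest on *Wnk4*, with 1.01 times.

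The 9 genes had a median percentile of 68.9, where 50 is the median of all genes, and 7 of them were above the median gene. Among the 13862 protein-coding genes alone, 5 of the 9 were above the median, since *Stk39* (percentile 44.8) and *Nedd4l* (48.7) fell below it. Of the 9 genes, 8 had a mean normalized count of at least 10 and 7 of at least 100. Among all 20122 genes with an exon length, 13611 had a mean of at least 10, and the median mean of the 20624 genes was 104.5.

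**Figure D2:**
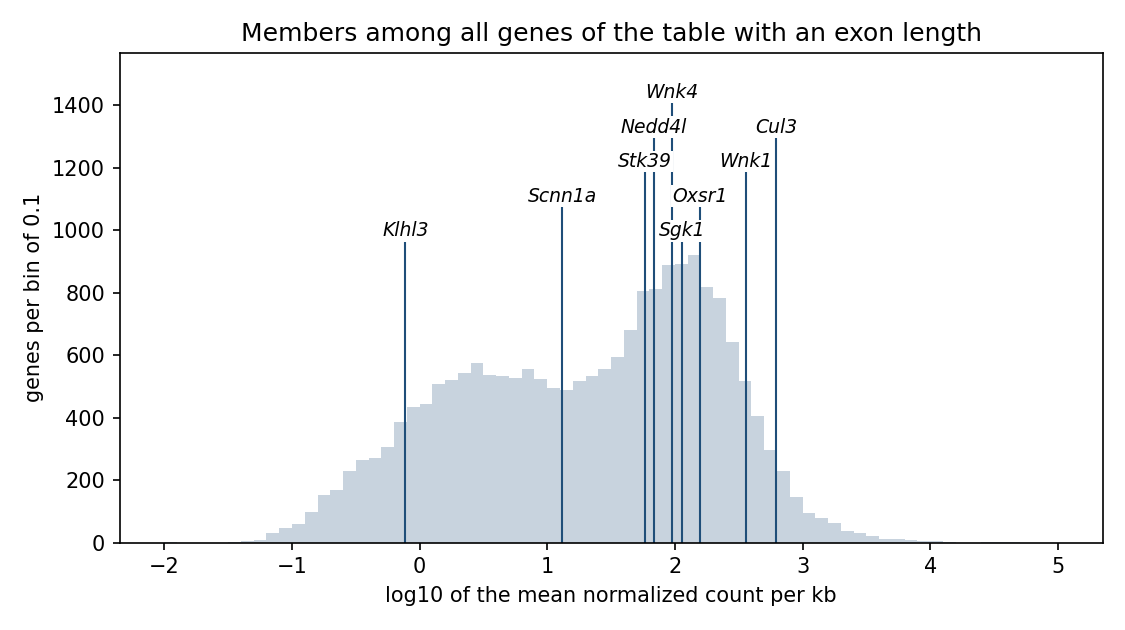
Histogram of the log10 of the mean normalized count per kb for the 20122 genes with an exon length, in bins of 0.1, with a line at each of the 9 genes (line heights differ only to separate the names). *Cul3* and *Wnk1* lie on the right shoulder, the next 5 genes near the upper peak, and *Klhl3* in the left part.

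The other genes of the pathway were taken from a list of 57 in 5 roles. Rows were found for 51 of them, 49 with a mean normalized count of at least 10, as had 13611 of the 20122 genes with an exon length. All 51 are protein-coding, while of the 20122 genes 13862 are. The share with a mean of at least 10 was not taken among protein-coding genes alone. The median percentile of the 51 was 83.2 among genes of all types. The gene at this median, *Cul1*, was at percentile 76.4 among protein-coding genes. Of the 11 other kinases and their partners, 10 had a row. The highest was *Pdpk1*, the kinase that activates SGK1, with 281 per kb, and the lowest *Wnk2*, with 1.18 per kb. The third paralog, *Wnk3*, had 17.7 per kb, so *Wnk1* exceeded it 20.3 times. *Cab39* and *Cab39l*, whose products are scaffolds that boost SPAK and OSR1 activity, had 220 and 85.9 per kb. Of the *Sgk1* paralogs, *Sgk2* had 5.63 per kb and *Sgk3* 59.3, the latter 0.518 times the value of *Sgk1*. With the longest transcript the order of *Sgk3* and *Sgk1* turned, at 1.15 times.

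All 16 genes of the ubiquitin machinery had a mean of at least 100, where the median mean of all genes was 104.5. The lowest per kb was *Usp2*, a deubiquitinase of the circadian and aldosterone response, with 11.1, and the highest *Nedd4*, with 1564. *Nedd4*, the nearest paralog of *Nedd4l*, exceeded it 22.8 times per kb. The further relatives *Wwp1*, *Wwp2* and *Itch* had 114, 115 and 182 per kb. *Klhl2*, a paralog of *Klhl3* whose product can also bring WNK kinases to cullin 3, had 70.4 per kb. This was 91.2 times the value of *Klhl3*, or 175 times with the longest transcript. Both ratios rest on a mean normalized count of only 5.70 for *Klhl3*, for which no counting error can be given. The other cullin genes, *Cul1*, *Cul2*, *Cul4a*, *Cul4b* and *Cul5*, ranged from 96.7 per kb for *Cul2* to 419 for *Cul4b*, all below *Cul3*.

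Of the 9 genes for mTORC2, which phosphorylates SGK1, and for the response to aldosterone, 8 had a mean of at least 100. The median mean of all genes was 104.5. The highest per kb was *Nr3c1*, and the lowest was *Nr3c2*, the receptor of aldosterone itself. *Hsd11b2*, whose enzyme protects that receptor from glucocorticoids, had 65.8 per kb.

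The transport targets were the most uneven role. Of the 9 genes listed, 5 had a row. The sodium-potassium-chloride cotransporter gene *Slc12a2* (NKCC1) had 164 per kb. Potassium-chloride cotransporters are switched off by the same phosphorylation, and their genes *Slc12a4*, *Slc12a5* and *Slc12a7* had 394, 4.11 and 133 per kb. *Scnn1g*, the gamma subunit of ENaC, had 0.193 per kb, against 13.1 per kb for *Scnn1a*. The *Scnn1g* value came from a mean normalized count of 0.618, which is the lowest of all deposited means. The NCC gene *Slc12a3*, the NKCC2 gene *Slc12a1*, the ENaC beta gene *Scnn1b* and the potassium channel gene *Kcnj1* had no row and were not analysed here.

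Of the 12 phosphatase and 14-3-3 genes, 11 had a row, and each of these lay above the median gene. They ran from *Ppp3ca*, a catalytic subunit of calcineurin, with 101 per kb, to the 14-3-3 gene *Ywhae*, with 3310.

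**Figure D3:**
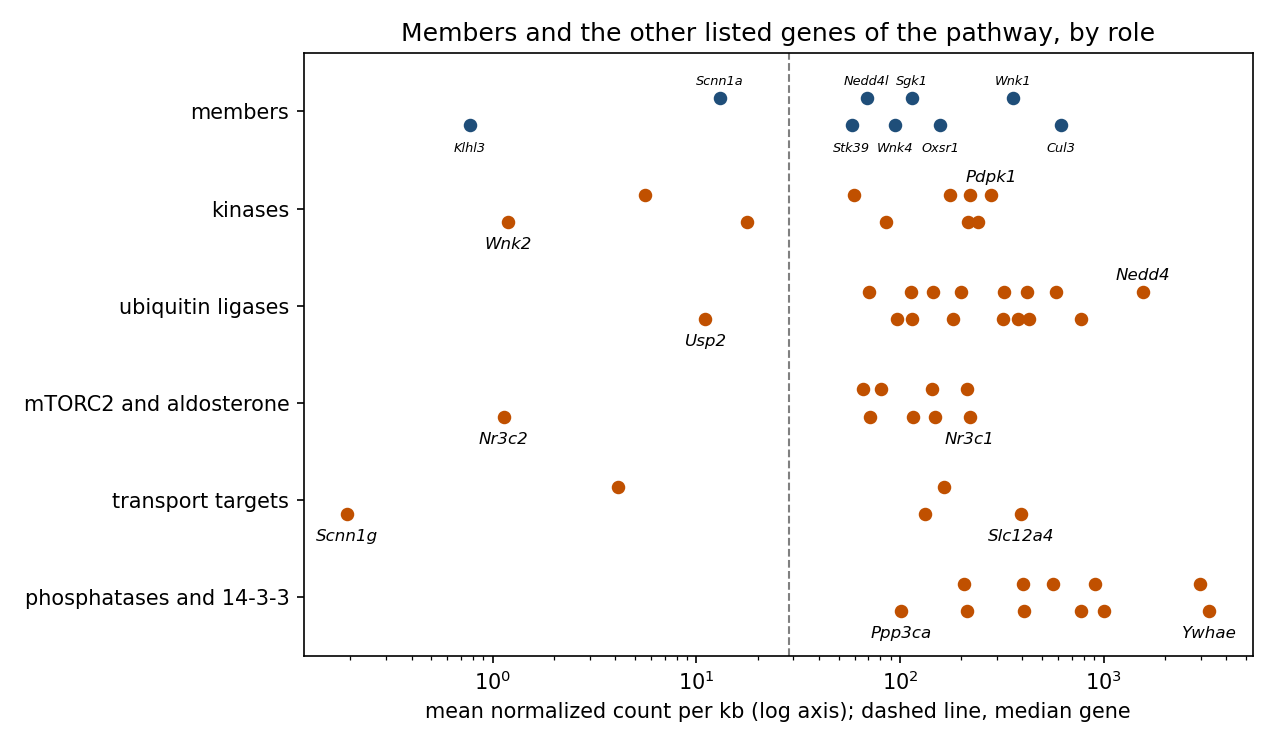
Mean normalized count per kb (log axis) of the 9 members (blue) and of the 51 other listed genes of the pathway with a row (orange), by role, each point 1 gene averaged over all 6 libraries and the dashed line the median gene. In each of the other roles the highest and lowest genes are named, from *Scnn1g* at 0.193 to *Ywhae* at 3310 per kb. The mean normalized count of *Scnn1g* was the lowest of all deposited means.

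The labelled cell type was compared with its markers, given here as mean normalized counts that are not scaled by length. Of 6 DCT markers, *Trpm6*, a magnesium channel gene, had a mean normalized count of 29.6, and *Slc12a3*, *Pvalb*, *Calb1*, *Emx1* and *Sall3* had no row. The rows analysed here thus hold 1 of the 6 markers, without the defining gene *Slc12a3*, and the 9 genes are described as those of the line mDCT15 rather than of DCT cells in general. Of the thick ascending limb markers only *Ptger3* had a row (8.20), while *Slc12a1*, *Umod* and *Cldn16* had none. Among principal cell markers, *Hsd11b2* had 122, *Aqp3* 1.95 and *Scnn1g* 0.618, with no row for *Aqp2*, *Fxyd4* or *Scnn1b*. None of the intercalated cell markers *Atp6v1b1*, *Foxi1*, *Slc4a1* and *Slc26a4* had a row.

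Markers of the proximal tubule, of epithelial and mesenchymal cells, and of leukocytes and endothelium are given beside them, also as mean normalized counts not scaled by length. Per kb their order differed in part. *Cubn* had 11.3 per kb, below the median gene at 28.6, while *Epcam* had 44.6 and *Cd68* 30.6. Of the proximal tubule genes, *Lrp2* had a mean normalized count of 8826 and *Cubn* 169, with *Slc34a1* at 2.04 and *Slc5a2* at 2.77. Of the epithelial genes, the kidney cadherin gene *Cdh16* had 4680, *Epcam* 115 and *Krt8* 0.980, and *Cdh1* and *Krt18* had no row. Of the mesenchymal genes, *Vim* had 17450, *Col1a1* 201, *Acta2* 110 and *Col1a2* 2.71. Of the leukocyte and endothelial markers, *Cd68* had 41.9, *Ptprc* 5.36 and *Pecam1* 4.68, and *Adgre1*, *Cdh5* and *Kdr* had no row. The part of these cell states in the levels of the 9 genes was not tested.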

How the data were processed

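Gene expression was measured by RNA sequencing after ribosomal RNA depletion in 3 wild type and 3 Pkd1-/- samples of mDCT15 cells, grouped by their titles. According to the submitters' processing notes and the methods of the study, reads were trimmed with Trim Galore 0.4.5, mapped with STAR 2.7.5a to GRCm39 (Ensembl release 105) and counted with HTSeq 0.11.0. The authors deposited, per gene, a signal that is the mean over all samples of the counts after division by size factors (DESeq2 1.22.0). Another 5 deposited columns hold the authors' comparison of the genotypes (log2 fold change, its standard error, a test statistic, a p-value and an adjusted p-value). These were not used. The methods name a minimum of 5 counts for each gene in each sample, but the lowest deposited mean was 0.618 and 5385 genes had a mean under 5. A gene without a row was not analysed here, and no level is read from that.

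Exon lengths and coordinates came from GENCODE M39 on GRCm39, a later annotation than that of the authors, which held 20122 (97.6%) of the identifiers. Reads were counted over the exons of the earlier annotation. Exons present only in the later annotation would add length without counted reads, and their effect on the values per kb and percentiles was not tested. The sum of the deposited means was 16746088. Start-site sequences came from a RefSeq table on GRCm38 and were placed on GRCm39 by exact match. As sequences were found for only 7 of the 9 members, no relation between composition and expression was computed. Lengths and percentiles were tested on simulated data. The members, lists and pairs were chosen with earlier results of these data known. Genes were named by rule: all members, the highest and lowest listed gene of each role, all listed transport targets and paralogs, all markers, and *Pkd1*. A further transport target, on the list as first drawn up, is not reported here and is left out of all counts. Genes named outside it were *Cab39*, *Cab39l*, *Coa3* and *A330084C13Rik*, chosen after their values were seen. No test between samples was made. The alternatives were the longest transcript as length, no scaling, protein-coding genes only and other minimum means. Python 3.11.15, numpy 2.4.6, pandas 2.3.3 and matplotlib 3.10.9 were used.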

Additional observations from a re-analysis of the deposited data

How the results depend on the processing

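The median percentile of the 9 genes, 68.9, was 74.3 with the longest transcript as length, 71.7 with no scaling by length, 56.6 among protein-coding genes and 56.9 among genes of mean 10 or more, where *Klhl3* left the list. No spread was available to judge these shifts. The number of members above the median gene was 7 with either other scaling, and 5 among protein-coding genes or among genes of mean 10 or more. Of the other listed pathway genes, 49 had a mean of at least 10, 46 of at least 100 and 50 of at least 1. Among all 20122 genes with an exon length, which include types other than protein-coding, 13611 had a mean of at least 10. The ratio of *Sgk3* to *Sgk1* turned from 0.518 to 1.15 with the longest transcript, a setting for ratios that was chosen after seeing the data, as the exon sets of the genes differ from their longest transcripts. The ratio of *Wnk1* to *Wnk4* moved from 3.79 to 7.78 and that of *Klhl2* to *Klhl3* from 91.2 to 175. No paired analysis was possible because the column used holds 1 mean over all samples, and for the same reason no replicate could be left out and no count test of the genotypes was run. The depth of each library is unknown, so no counting error can be given for low genes such as *Klhl3*.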
